A study of Mus musculus with 24 samples.

Results

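The 10 genes described here are the mouse genes of the major histocompatibility complex (MHC) class II pathway: Ciita, the master regulator; Cd74, the invariant chain; H2-Aa, H2-Ab1 and H2-Eb1, the chains of the surface molecules; and H2-DMa, H2-DMb1, H2-DMb2, H2-Oa and H2-Ob, the chains of the peptide editors. They were chosen by gene symbol and are 10 of the 55487 genes in the count table. All 10 had enough reads to enter the tests, which covered 23059 genes. The samples were 24 RNA-seq libraries of mouse LSK cells, the usual shorthand for lineage-negative, Sca-1-positive, KIT-positive blood progenitors, in 6 groups of 4 biological replicates. The labels say LSK, while the series' design text describes sorted Lineage-KIT+ cells.

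The liver was the source at postnatal day 0 (P0), with 1 group from wild-type animals (P0 WT) and 1 from animals whose Tet-off human MLL::ENL transgene (ME), a leukaemia fusion gene, was induced at E10.5 of embryonic life (P0 ME). Bone marrow was the source at day 28 (P28). Of the 4 groups at P28, 1 was wild type (P28 WT), 1 had ME induced at E10.5 and 1 had ME induced at P0. The fourth also had ME induced at E10.5 and is called RLT Vav Txp in the labels, which do not expand that name. The titles of its 4 libraries begin with tags, 2 of which share a number; what the tags mark is not given in the sources used here. Strain, sex, the promoter that drives the transgene and any allele or drug that all groups share are not given in the sources used here. Each age came with its own tissue, and the effects of age and tissue cannot be told apart. Library totals ran from 31233688 to 89774511 counts. The 7 LSK identity genes, among them Kit and Ly6a (which encodes Sca-1), summed to 1680 to 3532 TMM-normalised CPM at P0, 3089 to 3888 in the first 3 groups at P28 and 1920 to 2633 in RLT Vav Txp, with none at 0 in any library. At P0 the highest sums, 3484 CPM (WT) and 3532 CPM (ME), were in the libraries numbered 1.

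MHC class II molecules are pairs of an alpha and a beta chain that show peptides from the endosomes to CD4+ T cells. The invariant chain Cd74 escorts new pairs from the endoplasmic reticulum and fills the peptide groove. Endosomal proteases then trim it away, the H2-DM editor swaps its last fragment for a peptide, and H2-DO, made of H2-Oa and H2-Ob, restrains H2-DM. Ciita does not bind DNA itself: it is recruited by RFX, CREB and NF-Y proteins that sit on the X and Y boxes of class II promoters. High class II is known for B cells, dendritic cells and activated macrophages, and some blood progenitors also carry it.

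In GENCODE M21 on GRCm38, 8 of the 10 genes lie in one stretch of chromosome 17, from H2-Oa (chr17:34092340-34095234) past H2-DMa (chr17:34119541-34139101), H2-DMb2 (chr17:34143307-34151555), H2-DMb1 (chr17:34153072-34160230), H2-Ob (chr17:34238903-34254414), H2-Ab1 (chr17:34257689-34269419) and H2-Aa (chr17:34282744-34287823) to H2-Eb1 (chr17:34305867-34316674). H2-Aa is on the minus strand and the other 7 are on the plus strand. Ciita (chr16:10480059-10528418, plus strand) and Cd74 lie on other chromosomes. Exons overlap an exon on the opposite strand at Ciita (with Dexi), H2-DMa (with Brd2) and H2-Oa (with BC051537), and one on the same strand at Cd74 (with Mir5107). The strand setting of the counting is not given in the sources used here, so reads of opposite-strand partners cannot be told apart. H2-DMb1 and H2-DMb2 are closely related copies, and how reads matching both were counted is not given, so their separate values are uncertain.

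The promoters are shown because Ciita is known to act through these boxes, and the 4 genes printed differ in response below. Promoter windows of 300 bases, from 250 before to 50 after the start, came from RefSeq on GRCm38.p6 and were matched by symbol for 7 of the 10 genes, with 2 windows for H2-DMa. The letters TGATTGG (the Y box core), searched on both strands, occurred in the windows of H2-Oa, H2-DMb2, H2-DMb1, H2-Ob, H2-Aa and H2-Eb1 and in 7.82% of all 32851 windows. The letters AACNNATGA (within the X box), also on both strands, occurred in the windows of H2-DMb2, H2-DMb1, H2-Ob and H2-Eb1 and in 2.85% of all windows. Both sets of letters were chosen after these sequences had been seen, so the shares are descriptions, and the letters do not overlap each other in these windows. Both sets occurred together in 101 windows, 0.307% of all, and those of H2-DMb2, H2-DMb1, H2-Ob and H2-Eb1 were among them. Neither H2-DMa window held either set. Below are 60 bases of 4 promoters, 5′ to 3′ on the gene's strand, with the matched letters in capitals, for H2-DMb2 (chr17:34145112-34145171, plus strand), H2-Ob (chr17:34238801-34238860, plus strand), H2-Aa (chr17:34287859-34287918, minus strand) and H2-Eb1 (chr17:34305761-34305820, plus strand).
H2-DMb2: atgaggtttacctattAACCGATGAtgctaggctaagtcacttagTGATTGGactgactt
H2-Ob: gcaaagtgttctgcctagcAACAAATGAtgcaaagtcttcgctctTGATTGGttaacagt
H2-Aa: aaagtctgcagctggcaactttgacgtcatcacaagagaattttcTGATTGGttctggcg
H2-Eb1: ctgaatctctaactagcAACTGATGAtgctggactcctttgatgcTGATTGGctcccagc
The starts of the 2 boxes are 29 bases apart in H2-DMb2 and H2-DMb1, 26 in H2-Ob and 28 in H2-Eb1.

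The wild-type marrow libraries at P28 already held RNA of all 10 genes. Levels are CPM, read counts brought to a common library size with factors from the trimmed mean of M values (TMM), and levels of different genes are compared only as CPM per kilobase of exon. In P28 WT the mean level was 79.96 CPM per kb for Cd74, 54.3 for H2-DMa, 25.5 for H2-DMb1, 23.1 for H2-Ob and 20.7 for H2-Ab1. H2-Oa was at 14.2, H2-Eb1 at 9.37, H2-Aa at 7.91, H2-DMb2 at 7.55 and the regulator Ciita at 0.280 CPM per kb. The RNA for editors was thus of the same order as that for the surface chains. In the RLT Vav Txp group the same order began with Cd74 at 1522 CPM per kb, H2-Ab1 at 425, H2-Eb1 at 376 and H2-Aa at 190.0, followed by H2-DMb1 at 75.5 and H2-DMa at 61.8. There the chaperone and the surface chains stood above each of the 5 editors. The P28 WT libraries also held marker RNA of macrophages (summed 64.8 to 102 CPM), monocytes (532.7 to 657.5 CPM) and B cells (50.3 to 87 CPM). The part of such cells in the class II levels was not tested.

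**Figure D1:**
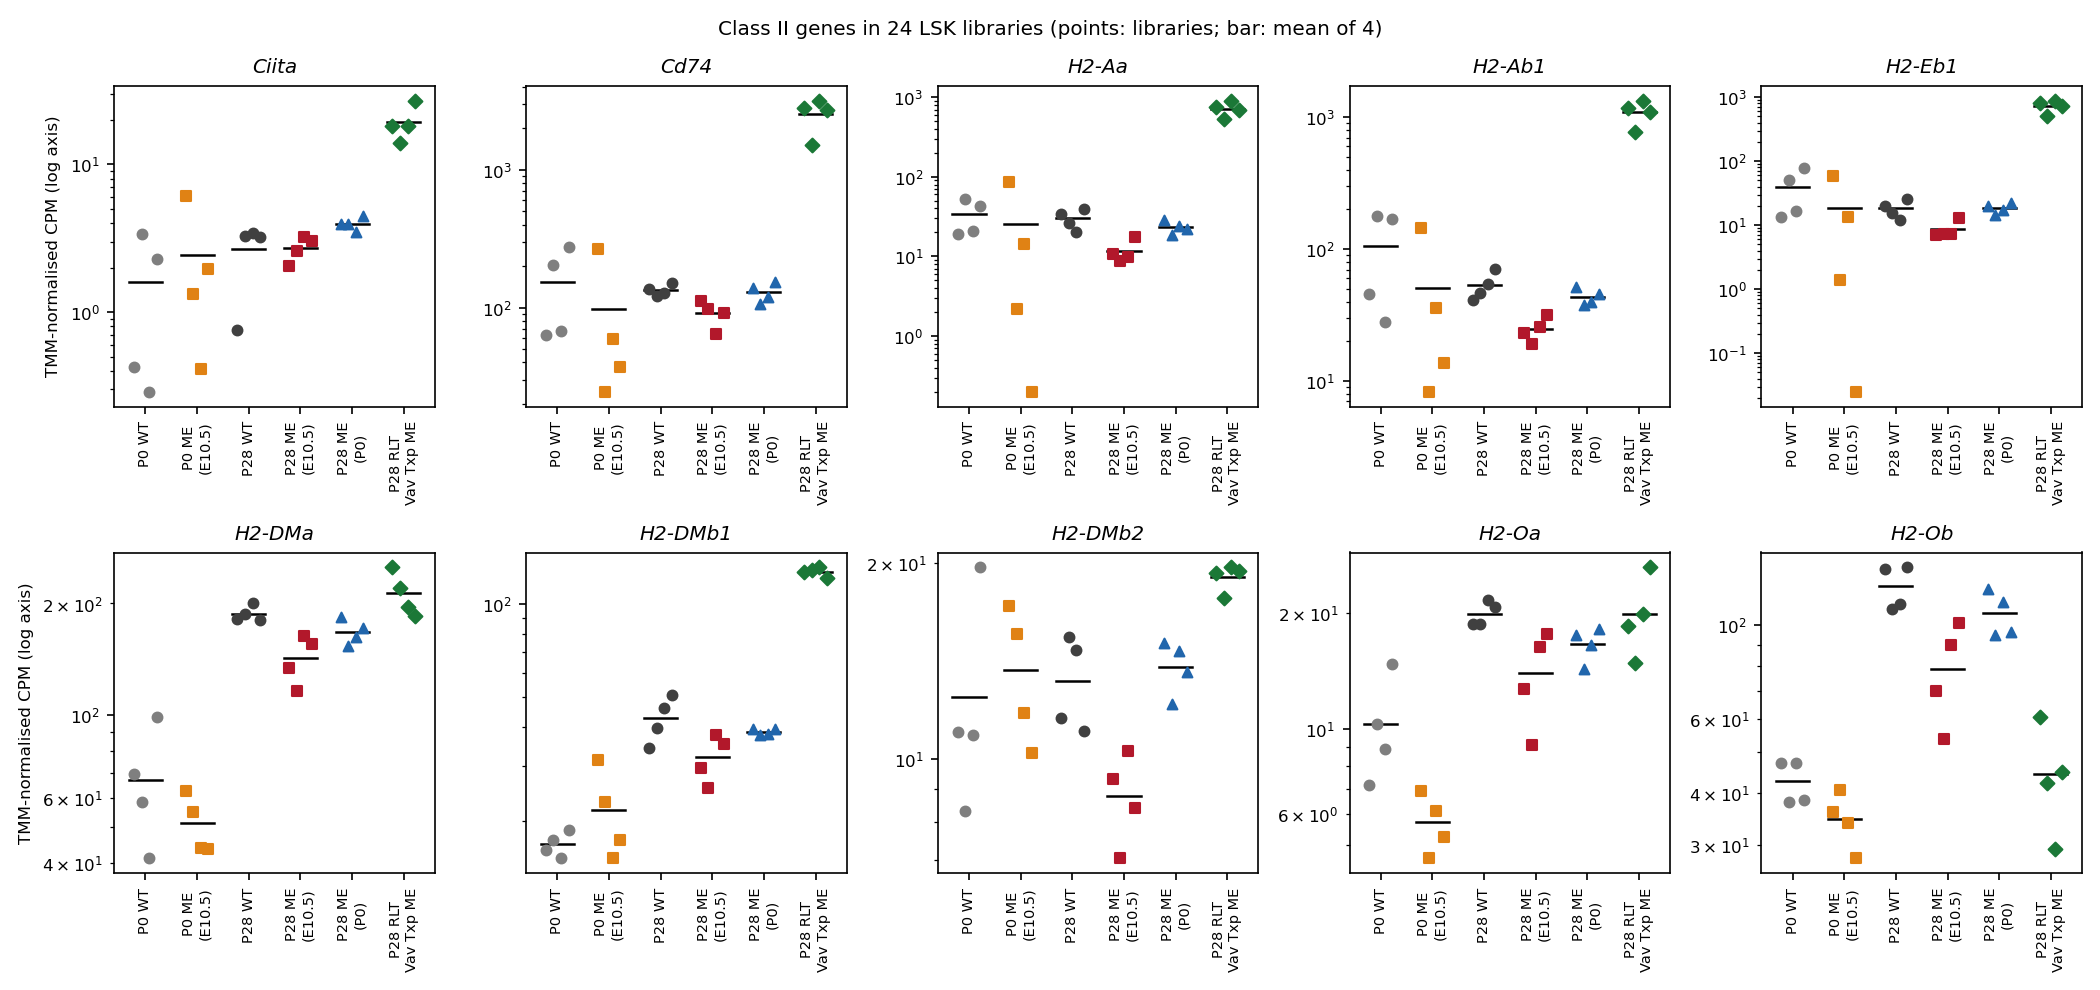
Level of each of the 10 class II genes in the 24 libraries. Each panel has its own log axis in TMM-normalised CPM, points are libraries, horizontal bars are the means of 4, and ME (E10.5) and ME (P0) give the time of induction. The 4 RLT Vav Txp libraries sit above all other libraries for Ciita, Cd74, H2-Aa, H2-Ab1, H2-Eb1 and H2-DMb1, while H2-Ob is lower there than in P28 WT.

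The largest differences were in the RLT Vav Txp group. There Ciita, Cd74, the 3 surface chains and H2-DMb1 were higher than in P28 WT, H2-Ob was lower, and H2-DMa, H2-DMb2 and H2-Oa did not pass the test. Differences were tested with edgeR's quasi-likelihood test, and a gene is called where its Benjamini-Hochberg adjusted p over all genes tested is under 0.05. Of the 10 genes, 7 were called, where 4.12% of all genes tested were called: 6 were higher (2.64% of all genes) and 1 lower (1.48%). The groups did not overlap for 8 of the 10 genes, against 11.5% of all genes. The median log2 fold change was 2.21 over the 10 genes and 0.007 over all genes. In bulk RNA, a change in the number of cells of a type and a change in RNA per cell cannot be told apart.

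Ciita, on which class II transcription depends, was at 18.2, 14.0, 18.0 and 26.95 CPM in the 4 RLT Vav Txp libraries and at 0.755, 3.27, 3.41 and 3.23 CPM in P28 WT. The groups were well apart, and 1 wild-type library lay below the other 3. The edgeR log2 fold change was 2.85 (SE 0.69, adjusted p = 0.014), or 7.21-fold. Without that wild-type library, replicate 1, it was 2.56 with an adjusted p of 0.058.

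Cd74 (chr18:60803848-60812652, plus strand), the chaperone of new class II pairs, was at 2798, 1513, 3180 and 2729 CPM in RLT Vav Txp and at 137, 122, 128 and 150.2 CPM in P28 WT. The second RLT Vav Txp library was the lowest of its group for Cd74 and still far above every wild-type library. The edgeR log2 fold change was 4.25 (SE 0.64, adjusted p = 0.000416), a 19.0-fold difference between a mean of 2555 ± 722.5 and 134 ± 12.4 CPM (SD, n = 4 each). As a share compared between groups and not between genes, Cd74 took 40.2% to 48.3% of the counts of the 10 genes in each RLT Vav Txp library and 20.8% to 22.3% in P28 WT.

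The surface chains had larger estimates than Cd74, by little for H2-Ab1 and H2-Aa, and the genes were not tested against each other. H2-Eb1, the beta chain of the I-E molecule, was at 799.5, 517, 885 and 726 CPM in RLT Vav Txp and at 20.0, 15.2, 12.1 and 25.5 CPM in P28 WT. The lowest of the high group was again the second library, and no value came near the other group. The edgeR log2 fold change of H2-Eb1 was 5.33 (SE 1.12, adjusted p = 0.00805), or 40.2-fold. H2-Ea, the I-E alpha chain gene, had 3 reads or fewer in all 4 RLT Vav Txp libraries, and protein was not measured here. H2-Aa, the alpha chain of the I-A molecule, was at 759, 534, 908 and 686 CPM against 33.6, 26.4, 20.15 and 39.9 CPM. It rose 24.0-fold by edgeR (log2 fold change 4.59, SE 1.01, adjusted p = 0.0117), and without replicate 3 of P28 WT the adjusted p was 0.0509. H2-Ab1, the beta chain of I-A, was at 1177, 766, 1335 and 1091 CPM against 41.35, 46.6, 54.0 and 70.6 CPM. Both I-A chains were separated without overlap, and H2-Ab1 rose 20.5-fold by edgeR (log2 fold change 4.36, SE 0.75, adjusted p = 0.0015).

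The peptide editors split. H2-DMb1, a beta chain of H2-DM, was at 126, 128, 131 and 121.5 CPM in RLT Vav Txp and at 34.3, 39.9, 46.3 and 51.1 CPM in P28 WT. Its 4 RLT Vav Txp values had the smallest relative spread of the 6 raised genes, and edgeR gave a log2 fold change of 1.56 (SE 0.19, adjusted p = 1.24e-05). Its alpha partner H2-DMa was at 251, 221, 196 and 185 CPM against 181, 188, 200.3 and 180.0 CPM, with overlapping groups and an edgeR adjusted p of 0.748 (log2 fold change 0.19). The other beta chain, H2-DMb2, was at 19.3, 17.7, 19.7 and 19.45 CPM against 11.6, 15.4, 14.7 and 11.1 CPM. Its groups were apart, but the edgeR adjusted p was 0.296 (log2 fold change 0.53).

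The inhibitor H2-DO did not follow. H2-Ob, its beta chain, was at 60.5, 42.3, 29.3 and 44.9 CPM in RLT Vav Txp and at 137, 109.5, 113 and 138 CPM in P28 WT. Every RLT Vav Txp library lay below every wild-type library, and edgeR gave a log2 fold change of -1.49 (SE 0.20, adjusted p = 5.34e-05), or 2.80-fold lower. H2-Oa, its alpha chain, was at 18.5, 14.9, 19.9 and 26.4 CPM against 18.7, 18.7, 21.7 and 20.7 CPM, with an edgeR adjusted p of 0.999 (log2 fold change -0.01). The 2 chains of H2-DO thus gave different values, and the RLT Vav Txp values of H2-Oa spanned those of the wild type.

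Ratios of counts within a library do not depend on scaling between libraries. They are not corrected for gene length, so they compare groups, not the levels of the 2 genes. H2-Ob had 2.96 ± 0.691 counts for each count of H2-DMb1 in P28 WT (SD, n = 4) and 0.350 ± 0.106 in RLT Vav Txp. In the 20 libraries outside RLT Vav Txp the ratio was never below 1.15 (reached in P0 ME), and in RLT Vav Txp it ran from 0.223 to 0.479. H2-Ab1 had 0.285 ± 0.0739 counts per count of H2-DMa in P28 WT and 5.22 ± 1.45 in RLT Vav Txp. The ratio of H2-DMb2 to H2-DMb1 was 0.314 ± 0.0713 in P28 WT and 0.150 ± 0.00909 in RLT Vav Txp. These ratios restate the unequal changes above in another form and were not tested.

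**Figure D2:**
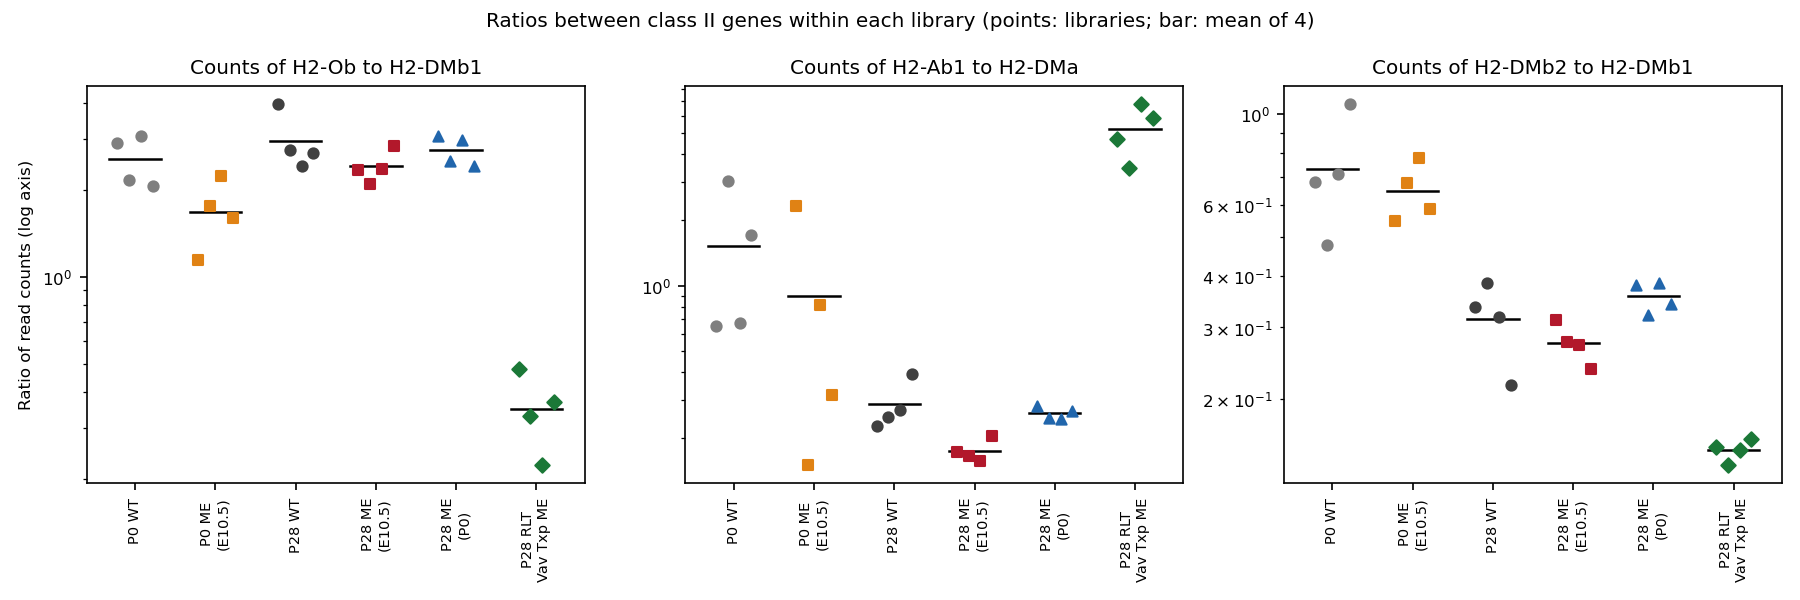
Ratios of raw read counts between class II genes within each library, on log axes: H2-Ob to H2-DMb1, H2-Ab1 to H2-DMa and H2-DMb2 to H2-DMb1. Points are libraries and bars the means of 4. The RLT Vav Txp libraries lie at 0.223 to 0.479 in the first panel, where all other libraries are above 1.

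Markers of other cell types moved with class II in the RLT Vav Txp group. Of 10 macrophage markers, 9 were higher than in P28 WT by edgeR, led by Adgre1 (log2 fold change 6.45), and the list summed to 698 to 2888 CPM against 64.8 to 102.0 CPM, with no macrophage marker at 0 in any library of the 6 groups. Of 5 monocyte markers 3 were higher, and of 8 B cell markers 3 (Ms4a1, Cd22 and Blnk), with B cell sums of 85.3 to 149 CPM against 50.3 to 87.0 CPM. Of the B cell markers 0 were lower, and the list's median log2 fold change was 2.437. Pax5, on that list and not called, was at 0 in 2 of 4 RLT Vav Txp and 2 of 4 P28 WT libraries. Of 8 conventional dendritic cell markers, 2 were lower (Flt3 and Ccr7), and Flt3, which other marrow cells also express, makes up most of the list's sum, 134.8 to 457 CPM against 1146 to 1278 CPM. The other 6 dendritic cell markers had positive edgeR log2 fold changes of 1.19 to 6.33, with each RLT Vav Txp library above each P28 WT library, but did not pass the test; the list's median was 2.875. Among those 6, Cd209a, a monocyte-derived dendritic cell gene named here after its values were seen, was at 10.8 ± 8.25 CPM against 0.196 ± 0.167 CPM with an edgeR adjusted p of 0.0501. Of 7 LSK identity genes 2 were lower, Cd34 and Hlf. The part these cells play in the class II values was not tested.

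Class II and macrophage RNA did not keep one ratio across libraries. In 6 of the 8 P0 libraries the macrophage markers summed to 1120 to 1587 CPM while the 10 class II genes summed to 157 to 760.3 CPM. In the second RLT Vav Txp library the macrophage sum was 698 CPM and the class II sum 3767 CPM. The other 3 RLT Vav Txp libraries had macrophage sums of 1824 to 2888 CPM and class II sums of 5656 to 6722 CPM. Monocyte markers summed to 3747, 1350, 5256 and 3446 CPM in the RLT Vav Txp libraries, in library order. The class II sums there, 6026, 3767, 6722 and 5656 CPM, ranked the libraries the same way. The 6 P0 libraries had monocyte sums of 1183 to 3718 CPM. They are of liver and RLT Vav Txp is of marrow at P28, so age and tissue differ as well. What part these cells play in the class II sums was not tested.

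**Figure D3:**
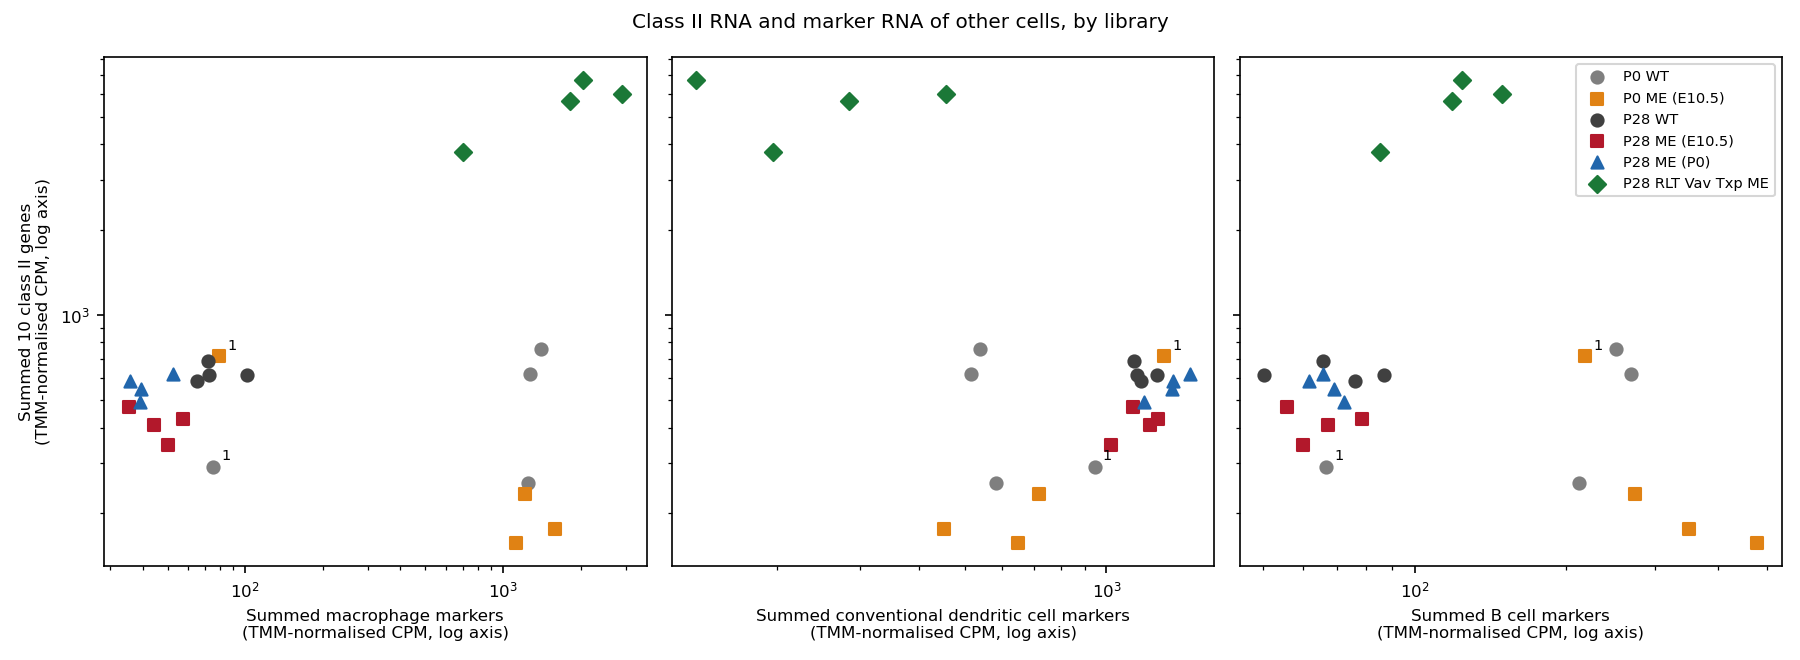
Summed TMM-normalised CPM of the 10 class II genes (vertical, log axis) against the summed CPM of macrophage, conventional dendritic cell and B cell markers (horizontal, log axes), 1 point per library; the digit 1 beside a point marks the P0 WT and P0 ME libraries numbered 1. At macrophage sums of 1120 to 1587 CPM, 6 P0 libraries have class II sums of 157 to 760.3 CPM, below all 4 RLT Vav Txp libraries at 3767 CPM or more. The P0 libraries are of liver and the RLT Vav Txp libraries of marrow at P28, so age and tissue differ as well. The part of macrophages in the class II sums was not tested.

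Among other genes of the pathway, those of endosomal processing and turnover rose with the surface chains in RLT Vav Txp. Against P28 WT, 7 of 8 endosomal processing genes were higher by edgeR, led by Lgmn, a protease that starts invariant chain trimming (log2 fold change 3.61), Ifi30, a thiol reductase (3.36), and the cathepsins Ctss (2.27) and Ctsb (2.21). Of 3 class II turnover genes, Marchf1, a ligase that removes class II from the surface (3.97), and Cd83, which counters it (3.46), were higher. Over all 25 pathway genes tested, 9 were higher by edgeR, all of them in those groups of endosomal and turnover genes, and the median log2 fold change was 0.444. The 7 enhanceosome genes (RFX, CREB and NF-Y) had a median of 0.002 and the 6 interferon-gamma signalling genes one of 0.399. Macrophage, monocyte and B cell markers rose in the same libraries, as given above, and their part in these values was not tested.

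Against P28 ME induced at E10.5, the group with which RLT Vav Txp shares its time of induction, 8 of the 10 genes were higher by edgeR and 1 lower, where 17.9% of all genes were called, 8.5% higher and 9.38% lower. The groups did not overlap for 8 of the 10 genes, against 25.7% of all genes. This comparison shares the RLT Vav Txp libraries with the previous one. H2-Eb1 was at 6.97, 7.37, 7.21 and 13.1 CPM in P28 ME (E10.5), against at least 517 CPM in RLT Vav Txp, and its edgeR log2 fold change was 6.40 (SE 1.18, adjusted p = 0.00155). The log2 fold changes of the other strongly raised genes by edgeR were 5.95 for H2-Aa, 5.45 for H2-Ab1, 4.81 for Cd74 and 2.82 for Ciita, with adjusted p from 1e-04 to 0.00658.

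All 3 H2-DM genes were higher than in P28 ME (E10.5). By edgeR H2-DMb1 rose by 1.98 (SE 0.19, adjusted p = 2.93e-07), H2-DMb2 by 1.12 (SE 0.25, adjusted p = 0.0036) and H2-DMa by 0.58 (SE 0.19, adjusted p = 0.0333), all as log2 fold changes. The H2-DMa call was lost in 5 of 8 fits that left out 1 library, with adjusted p up to 0.122. H2-Ob was lower again, by -0.83 (SE 0.20, edgeR adjusted p = 0.006), but here the groups overlapped. The first RLT Vav Txp library, at 60.5 CPM, lay above replicate 2 of P28 ME (E10.5), at 53.5 CPM. H2-Oa did not pass (log2 fold change 0.51, edgeR adjusted p = 0.162). H2-Ob is thus the gene of the 10 that was lower in RLT Vav Txp in both comparisons. Macrophage markers were higher in 10 of 10, monocyte markers in 4 of 5, B cell markers in 6 of 8 and conventional dendritic cell markers in 5 of 8 (2 lower), with Cd209a at 0 in all 4 P28 ME (E10.5) libraries; their part was not tested. Of the 25 pathway genes tested, 9 were higher and 1, Nfyb, was lower.

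**Figure D4:**
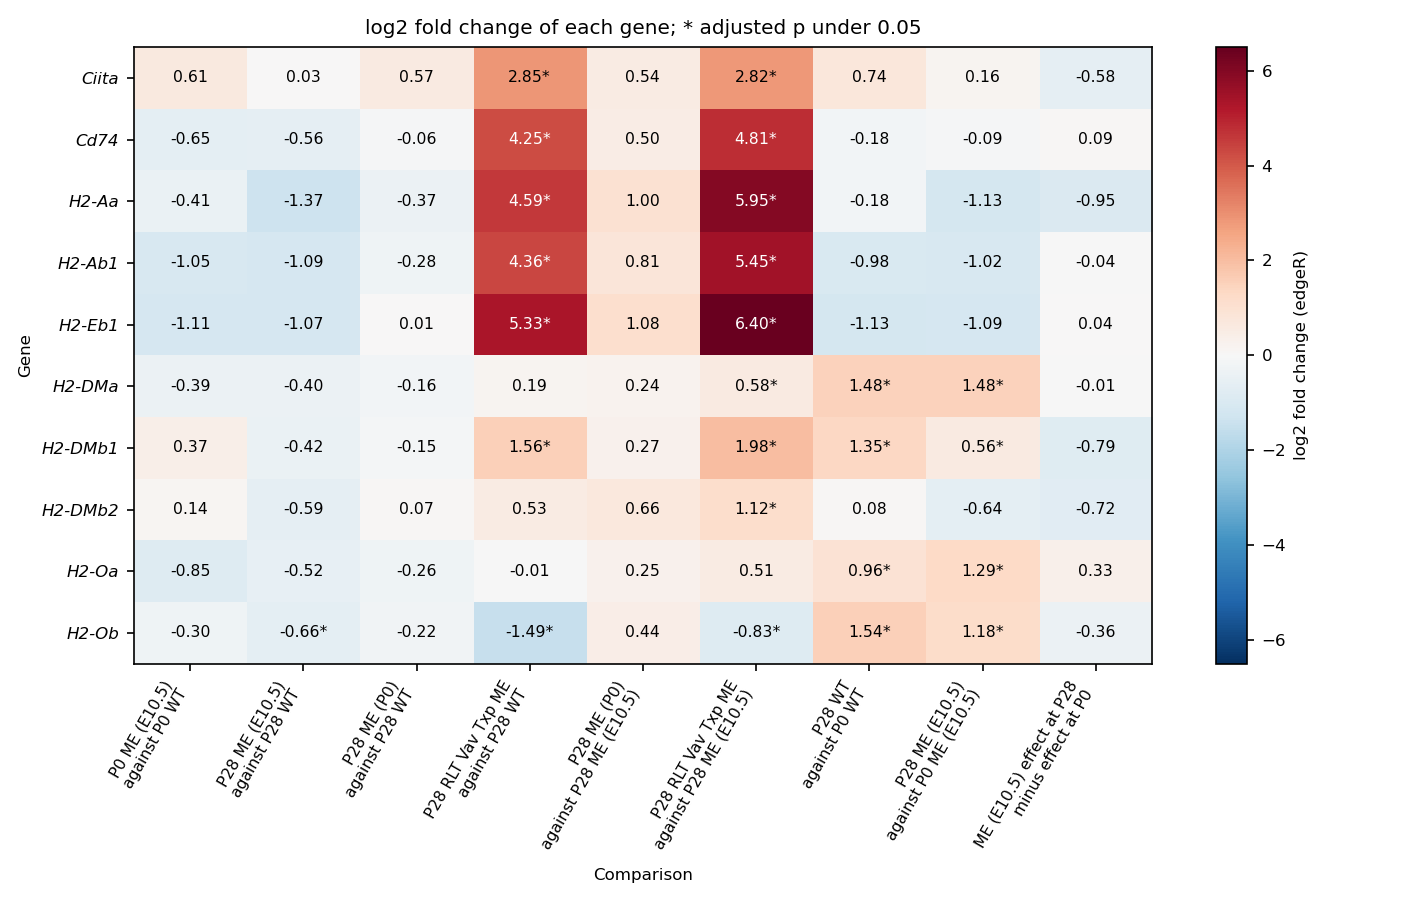
edgeR log2 fold change of each class II gene (rows) in the 9 comparisons (columns), coloured from blue (lower in the group named first) to red (higher), with an asterisk where the adjusted p is under 0.05. Columns that name the same group share its libraries. The 2 RLT Vav Txp columns hold log2 fold changes up to 6.40 for H2-Eb1, and H2-Ob is negative in both.

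In marrow progenitors at P28, 9 of the 10 class II genes had lower estimates with ME induced at E10.5 than in the wild type, and 1 of them, H2-Ob, passed the test. H2-Ob was at 69.75, 53.5, 89.96 and 101 CPM, below the 109.5 to 138 CPM of P28 WT. The edgeR log2 fold change was -0.66 (SE 0.20, adjusted p = 0.029). In 4 of 8 fits that left out 1 library (replicates 1 and 2 of ME, 1 and 4 of WT) H2-Ob missed the threshold, with adjusted p up to 0.132. That makes 1 of 10 genes called, where 12.3% of all genes were called and 4.44% were called lower.

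The other 9 genes did not pass. H2-Aa was at 10.6, 8.715, 9.90 and 17.4 CPM in P28 ME (E10.5), and its edgeR log2 fold change was -1.37 (SE 0.90, adjusted p = 0.353). H2-Ab1 was at 23.1, 19.1, 25.75 and 31.7 CPM, with -1.09 (SE 0.66, edgeR adjusted p = 0.306). Both I-A chains lay below every P28 WT library. The groups also did not overlap for Cd74, H2-DMa, H2-DMb2, H2-Oa and H2-Ob, which makes 7 of 10 genes, all lower, against 28.2% of all genes in either direction. Edge values came close: Cd74 was at 111, 98.0, 63.85 and 91.65 CPM against at least 122 CPM in P28 WT, and its edgeR adjusted p was 0.568 (log2 fold change -0.56). The median log2 fold change of the 10 genes was -0.574, and -0.103 over all genes.

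How many of these genes were called depended on how the spread was estimated. With only the 2 groups in the edgeR fit, 9 of 10 were called, but so were 34% of all genes. With limma and sample weights 6 of 10 were called (28.2% of all genes), and with DESeq2 3 of 10 (21.2%). The macrophage markers in this group summed to 35.3 to 57.3 CPM, below every P28 WT library, and their part in the values was not tested. Jak2, a kinase of interferon-gamma signalling, was higher by 0.74 on the edgeR log2 scale, in a comparison where the fit of all 24 libraries called 12.3% of all genes. Of the 7 enhanceosome, 8 endosomal processing and 3 turnover genes, 0 were called in that fit. Ciita was at 2.06, 2.58, 3.24 and 3.04 CPM and overlapped the wild type.

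With ME induced at P0, no class II gene in P28 marrow passed the test against the wild type. By edgeR 0 of 10 genes were called and 0 had an unadjusted p under 0.05, where 1.57% of all genes were called. DESeq2 and limma also called 0 of 10, where they called 12.5% and 21.7% of all genes. Log2 fold changes against P28 WT ran from -0.37 to 0.57. Ciita was at 3.94, 3.95, 3.50 and 4.50 CPM, above every P28 WT library, with an edgeR log2 fold change of 0.57 (adjusted p = 0.676). H2-Oa was at 17.6, 14.3, 16.5 and 18.2 CPM, below every P28 WT library, with -0.26 (edgeR adjusted p = 0.602). These were 2 of 10 genes without overlap, against 24.8% of all genes. H2-Ob, at 122, 94.9, 114 and 96.6 CPM, overlapped P28 WT.

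Between the times of induction at P28, all 10 genes had higher estimates with ME induced at P0 than at E10.5, but none passed the test. Log2 fold changes ran from 0.24 to 1.08 with a median of 0.522, against -0.024 over all genes. By edgeR 0 of 10 genes were called and 2 had an unadjusted p under 0.05, where 0.0477% of all genes were called. DESeq2 also called 0 (0.401% of all genes), limma with sample weights called 3 (10.1%), and the fit of only these groups called 4 (6.35%). H2-Ab1 was at 51.5, 37.9, 39.6 and 45.6 CPM against 19.1 to 31.7 CPM, with an edgeR log2 fold change of 0.81. Ciita, H2-Aa, H2-Ab1, H2-Eb1 and H2-DMb2 did not overlap between the groups, 5 of 10 genes, against 11.8% of all genes. This comparison shares the E10.5 libraries with those above.

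Between P0 liver and P28 marrow in wild-type mice, 4 of the 5 editor genes differed, while the fifth, H2-DMb2, and the surface chains did not pass the test. H2-DMa, H2-DMb1, H2-Oa and H2-Ob were higher at P28, 4 of 10 genes called, all higher, where edgeR called 7.68% of all genes and 3.12% as higher. The same 4 did not overlap between the groups, against 9.27% of all genes. H2-Ob was at 47.0, 37.9, 47.0 and 38.5 CPM at P0 and was higher at P28 by edgeR, log2 fold change 1.54 (SE 0.20, adjusted p = 2.89e-05). H2-DMa was at 69.3, 58.4, 41.1 and 99.2 CPM at P0 and rose by 1.48 (SE 0.19, edgeR adjusted p = 2.57e-05). Its lowest P28 WT library, at 180.0 CPM, lay above all of these. H2-DMb1 was at 16.15, 17.4, 15.2 and 18.6 CPM at P0 and rose by 1.35 (SE 0.19, edgeR adjusted p = 5.98e-05). H2-Oa was at 7.16, 10.3, 8.86 and 14.8 CPM at P0 and rose by 0.96 (SE 0.25, edgeR adjusted p = 0.0179). The H2-Oa call was lost without replicate 1 or 3 of P0 WT or replicate 3 of P28 WT, with adjusted p of 0.0503 to 0.0526, and in the fit of these groups alone, with 0.12.

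The surface chains varied widely among the P0 libraries. H2-Ab1 was at 45.3, 177, 27.8 and 170.2 CPM in P0 WT, with an edgeR log2 fold change at P28 of -0.98 (adjusted p = 0.424). H2-Eb1 was at 13.5, 51.3, 16.5 and 78.1 CPM, with -1.13 (edgeR adjusted p = 0.545). The 2 libraries high in one chain were high in the other. H2-DMb2 gave a log2 fold change of 0.08 (edgeR adjusted p = 0.90). Markers of other cells lower at P28 by edgeR were 8 of 10 for macrophages, 7 of 8 for B cells, 3 of 5 for monocytes, 3 of 5 for hepatocytes, 1 of 5 tested for plasmacytoid dendritic cells, 0 of 8 for conventional dendritic cells and 0 of 5 tested for T cells; their part in the values was not tested. Of the 25 pathway genes 3 were higher, Rfx5 (1.11), Irf1 (1.2) and Jak1 (0.64), and 5 lower, led by Lgmn (-4.01) and Ifi30 (-3.25) on the edgeR log2 scale.

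With ME induced at E10.5, the same 4 editor genes were higher in P28 marrow than in P0 liver, 4 of 10, where edgeR called 18.2% of all genes and 9.79% as higher. H2-DMa rose from 62.3, 55.0, 43.8 and 43.7 CPM, log2 fold change 1.48 (SE 0.19, edgeR adjusted p = 1.74e-05). H2-Oa rose from 6.90, 4.61, 6.13 and 5.23 CPM by 1.29 (SE 0.25, edgeR adjusted p = 0.00106). H2-Ob rose from 36.0, 40.5, 33.9 and 27.9 CPM by 1.18 (SE 0.20, edgeR adjusted p = 0.000258). These 3 did not overlap between the ages, against 25.4% of all genes. H2-DMb1, at 31.5, 23.0, 15.15 and 17.4 CPM at P0, rose by 0.56 (SE 0.19, edgeR adjusted p = 0.0366), a call lost in 5 of 8 fits that left out 1 library, with adjusted p up to 0.127. H2-DMb2 had a log2 fold change of -0.64 (edgeR adjusted p = 0.0696). Cd74 had -0.09, which became 1.18 (edgeR adjusted p = 0.0446) without replicate 1 of P0 ME. Markers lower at P28 by edgeR were 10 of 10 for macrophages, 7 of 8 for B cells, 4 of 5 for monocytes, 5 of 5 for hepatocytes, 1 of 8 for conventional dendritic cells and 1 of 5 tested each for plasmacytoid dendritic and T cells, and their part was not tested. Of the 25 pathway genes 5 were higher and 8 lower.

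At P0 the spread between replicates was wide, and ME against wild type gave no call. By edgeR 0 of 10 genes were called and 2 had an unadjusted p under 0.05, where 0.642% of all genes were called. With limma 0 were called (0.0694% of all genes) and with DESeq2 1, H2-Oa (3.56%). Cd74 was at 268, 24.4, 59.6 and 37.0 CPM in P0 ME and at 63.2, 204, 67.4 and 276 CPM in P0 WT. H2-Eb1 was at 58.6, 1.385, 13.5 and 0.0247 CPM in P0 ME, the last being 1 read. H2-Aa was at 85.4, 2.16, 14.1 and 0.197 CPM. Replicate 1 of P0 ME was the highest of its group for all 3 genes, and replicates 2 and 4 held little RNA of H2-Eb1 and H2-Aa.

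The P0 results of Cd74 and H2-Ab1 depended on that library. With all libraries, Cd74 had an edgeR log2 fold change of -0.65 (SE 0.56, adjusted p = 0.646) and H2-Ab1 one of -1.05 (SE 0.66, adjusted p = 0.494). Without replicate 1 of P0 ME they were -1.92 (edgeR adjusted p = 0.04) and -2.45 (edgeR adjusted p = 0.0479). These were 2 of 10 genes called, where 0.599% of all genes were called, and that fit kept replicate 1 of P0 WT. H2-Eb1 had -2.99 in that fit. It was called in 0 of 8 fits that left out 1 library, with edgeR adjusted p of at least 0.168. Leaving out the libraries numbered 1 of both P0 groups was an alternative chosen after the data had been seen. It called 2 of 10 genes (0.998% of all genes), Cd74 at -2.18 (edgeR adjusted p = 0.00546) and H2-Ab1 at -2.70 (edgeR adjusted p = 0.0183). Those 2 libraries stood apart: their macrophage markers summed to 75.3 CPM (WT) and 79.0 CPM (ME), against 1120 to 1587 CPM in the other 6. Their monocyte markers summed to 372 CPM (WT) and 205 CPM (ME), against 1183 to 3718 CPM. Their LSK identity genes were higher, at 3484 CPM (WT) and 3532 CPM (ME), against 1680 to 2535 CPM in the other 6. The fit without them thus rests on the P0 libraries with more marker RNA of mature cells. The part of these differences in the class II values was not tested.

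H2-Oa was the one gene of the 10 whose P0 groups did not overlap, against 3.74% of all genes. It was at 4.61 to 6.90 CPM in P0 ME and at 7.16 to 14.8 CPM in P0 WT. The edgeR log2 fold change was -0.85 (SE 0.25, adjusted p = 0.122), and without replicate 1 of P0 WT it was -1.03 (adjusted p = 0.0382). The difference between the ME effects at P28 and at P0 was called for 0 of 10 genes by edgeR, where 0.72% of all genes were called. By edgeR 2 had an unadjusted p under 0.05. DESeq2 called 1 of 10 (3.47% of all genes) and limma 0 (2.79%). H2-DMb1 had the value nearest to a call, -0.79 (SE 0.26, edgeR adjusted p = 0.132).

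Some genes varied together between libraries of the same group. After each group's mean was subtracted, log2 CPM of H2-Aa and H2-Eb1 had a Pearson r of 0.985 over the 24 libraries, and Cd74 and H2-Ab1 one of 0.933. The lowest pair was Ciita and H2-Ob, at -0.173. The most variable libraries, those of P0, weigh most in these values, which are descriptions over libraries that share depth and cell content. Among them, replicate 4 of P0 ME held only 8 reads of H2-Aa and 1 read of H2-Eb1. Outside the 10 genes, those whose deviations were most like the class II mean, among 11304 candidates, were Oasl2 (r = 0.845), Gbp6 (0.839), Trim30a (0.808), Ddx60 (0.807), Rtp4 (0.794), Cyp2r1 (0.784), Ms4a6b (0.777) and Xlr4a (0.77). Without subtracting group means, which lets the RLT Vav Txp group set the pattern, they were Btbd19 (0.892), Muc13 (0.879), Lhcgr (0.877), Casp12 (0.872), Akr1c13 (0.863), Tmem176a (0.863), Batf2 (0.858) and Dnaaf3 (0.853). The 2 lists of 8 have no gene in common.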

How the data were processed

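Per the labels' protocols, RNA came from the Qiagen RNeasy Plus kit and was made into libraries by the Clontech SMARTer method. The authors deposited a single table of unnormalised read counts, with Ensembl genes as rows and 24 libraries as columns. The submitters' processing notes name STAR 2.7.9a, Subread featureCounts 2.0.3 and GRCm38; their settings are not given in the sources used here. From the table's 55774 entries, 287 repeats with identical counts were dropped. Genes passing filterByExpr (minimum count 10) were scaled by TMM and fitted with edgeR's robust quasi-likelihood model on all 24 libraries (1 mean per group, 18 residual degrees of freedom), with Benjamini-Hochberg adjustment over 23059 genes in each of 9 comparisons. SEs are the log2 fold change over the root of F. Log2 CPM for correlations used a prior count of 2.

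All 10 genes were named. From the pathway and marker lists at most 4 called genes were named per list and comparison, by size of change. Pax5 and Cd209a were named in addition. Likeness named the 8 highest correlations among genes whose mean log2 CPM reached 1. Results of 1 pathway gene are not reported here. The genes and lists were chosen with earlier results of these data known. P-values measure the spread between these libraries. PCR copies count as separate reads. The procedure was tested on simulated data. Alternatives were RLE factors, DESeq2, limma with quality weights, no low-count filter, only the groups compared, the 20 numbered libraries with a replicate block or with none, each library left out, and, added after seeing the data, both P0 libraries numbered 1 left out. Versions were edgeR 4.0.16, DESeq2 1.42.0 and limma 3.58.1 in R 4.3.3, with figures from matplotlib 3.10.9 in Python 3.11.15. Coordinates are from GENCODE M21 and promoters from RefSeq.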

Additional observations from a re-analysis of the deposited data

Results flagged for a closer look

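Within groups of 4, a highest or lowest library was set apart where its gap to the next one, as a share of the group's range, passed Dixon's critical value; 60 such groups were examined, and chance alone gives about 1 in 20. Replicate 1 of P0 ME was the highest of its group for Cd74, at 267.9 CPM with the next at 59.6 CPM, and for H2-Aa, at 85.36 CPM with the next at 14.1 CPM. Replicate 1 of P28 WT was the lowest for Ciita, at 0.7548 CPM with the next at 3.23 CPM. Replicate 4 of P28 ME induced at E10.5 was the highest for H2-Eb1, at 13.09 CPM with the next at 7.37 CPM.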

How the results depend on the processing

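The 7 calls against P28 WT and 9 against P28 ME (E10.5) in the RLT Vav Txp group were matched in number under RLE factors, DESeq2, limma, no filter and the fit of only the groups compared. For P28 ME (E10.5) against WT the count of 1 became 3 with DESeq2, 6 with limma and 9 with only the groups compared, and ran from 0 to 1 with 1 library left out. For induction at P0 against E10.5 the count of 0 became 3 with limma and 4 with only the groups compared. For P0 ME against WT the count of 0 became 1 with DESeq2 (3.56% of all genes) and 2 without both P0 libraries numbered 1 (0.998%). It ran from 0 to 2 with 1 library left out. For the difference of ME effects DESeq2 called 1 (3.47% of all genes). Directions turned for 3 values that had not been called: with 1 library left out, H2-DMb2 between the ages in WT ran from -0.064 to 0.37, H2-Oa in RLT Vav Txp against WT from -0.18 to 0.11, and Cd74 between the ages in ME from -0.40 to 1.18. Cd74 there was also 0.10 with the replicate block, 0.53 with limma and 1.18 without both P0 libraries numbered 1. Same-numbered libraries of different groups deviated together little on average. Their mean r was 0.027 over 40 pairs (highest 0.579, 13 over 0.1), against -0.009 over 120 differently numbered pairs (highest 0.301). Both P0 libraries numbered 1 were low in macrophage markers and the highest of the P0 libraries in LSK identity genes, as given above. Since 8 of 20 libraries were closest to their own number, the numbers were not used as pairs. The 20 numbered libraries gave 1 class II call in P28 ME (E10.5) against WT with the replicate block and 1 without, and 3 in the ME age comparison with it and 3 without. For H2-DMb1 in that comparison the adjusted p was 0.0753 with the replicate block and 0.0574 without. The tags in the RLT Vav Txp titles share no number with the other groups, so no paired fit was possible for it. Low counts limit Ciita and, in P0 ME, H2-Eb1, where 1 library held 1 read.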
